A study of Mus musculus with 44 samples.

Results

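The 9 Slc22 genes described here encode organic ion transporters of the kidney tubule: Slc22a2, Slc22a4, Slc22a5, Slc22a6, Slc22a7, Slc22a8, Slc22a12, Slc22a13 and Slc22a19. They were taken by name from a table of 24733 mouse genes with a value in at least 1 kidney library, and all 9 passed the filter that left 12874 genes for testing (a mean of at least 1 TPM, a library's transcripts scaled by length to a fixed total). Another 15 genes with a symbol beginning Slc22a were taken from the same table for comparison. Poly(A) RNA was sequenced from whole kidney of 129SV mice 8 to 12 weeks after birth, all under night-restricted feeding. The 12 wild-type (WT) and 12 knockout (KO) libraries comprise 2 libraries (replicates A and B) at each of 6 times. Time is given as zeitgeber time (ZT), the hours since lights on, at ZT0, ZT4, ZT8, ZT12, ZT16 and ZT20. The KO mice carry both disrupted copies of Bmal1 (Arntl), the activator of the circadian clock that pairs with CLOCK on E-box sequences. Nothing in the labels restricts the deletion to the kidney, and neither sex nor the source animal of each library is given, so p-values measure the spread between libraries, whatever its source.

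SLC22 proteins carry charged small molecules across cell membranes. In the proximal tubule, organic anion transporters on the blood side take up drugs, toxins and metabolites in exchange for dicarboxylates, and other transporters on the urine side release them or recover urate. Organic cation transporters take up positively charged compounds, and the OCTN branch of the family carries carnitine and ergothioneine.

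Sequences at the start sites of 8 of the 9 genes were found in RefSeq (mouse build GRCm38.p6, 250 bases before to 50 after the annotated start), and Slc22a7 was not matched. Of 5 motifs searched on both strands, the E-box CACGTG was found in the Slc22a4 window only among the 8, at 228 bases before the start, and in 7.15% of all 32851 RefSeq windows of that length. The half-site of HNF1 factors, GTTAAT, was found in Slc22a8 (81 bases before the RefSeq start) and in Slc22a6 (56 bases before), and in 7.10% of all windows. The Slc22a8 window lies downstream of the starts of both measured transcripts of that gene (chr19:8591289 and 8591254), so it is not at their start. The androgen receptor half-site AGAACA was found in Slc22a19 on the opposite strand, 170 bases before the start, and in 19.0% of all windows. The D-box TTATGTAA (0.938% of all windows) and the nuclear receptor half-site AGGTCA (16.3%) were in none of the 8 windows. The windows of 4 genes are printed 5′ to 3′ in the direction of the gene, with a motif in capitals where there is one, because they belong to the 2 pairs of neighbouring genes whose values are compared below.
Slc22a6, chr19:8617746-8618045, plus strand, GTTAAT in capitals: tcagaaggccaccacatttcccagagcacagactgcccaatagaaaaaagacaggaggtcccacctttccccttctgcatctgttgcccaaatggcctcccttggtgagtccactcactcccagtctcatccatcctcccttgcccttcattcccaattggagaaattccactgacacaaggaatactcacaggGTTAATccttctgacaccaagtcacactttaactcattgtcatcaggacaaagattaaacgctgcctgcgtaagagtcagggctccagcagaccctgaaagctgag
Slc22a8, chr19:8592932-8593231, plus strand, GTTAAT in capitals: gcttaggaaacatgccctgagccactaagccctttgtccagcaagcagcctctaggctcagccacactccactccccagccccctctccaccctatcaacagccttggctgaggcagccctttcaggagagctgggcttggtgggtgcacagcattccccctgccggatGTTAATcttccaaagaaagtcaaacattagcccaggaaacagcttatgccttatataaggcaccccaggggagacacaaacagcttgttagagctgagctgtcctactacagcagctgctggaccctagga
Slc22a4, chr11:54028055-54028354, minus strand, CACGTG in capitals: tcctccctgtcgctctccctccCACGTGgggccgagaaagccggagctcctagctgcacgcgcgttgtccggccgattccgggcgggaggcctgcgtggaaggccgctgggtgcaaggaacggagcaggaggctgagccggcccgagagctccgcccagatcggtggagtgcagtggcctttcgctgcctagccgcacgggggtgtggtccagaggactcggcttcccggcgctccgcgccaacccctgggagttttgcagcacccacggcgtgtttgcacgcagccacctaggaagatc
Slc22a5, chr11:53891654-53891953, minus strand, none of the 5 motifs: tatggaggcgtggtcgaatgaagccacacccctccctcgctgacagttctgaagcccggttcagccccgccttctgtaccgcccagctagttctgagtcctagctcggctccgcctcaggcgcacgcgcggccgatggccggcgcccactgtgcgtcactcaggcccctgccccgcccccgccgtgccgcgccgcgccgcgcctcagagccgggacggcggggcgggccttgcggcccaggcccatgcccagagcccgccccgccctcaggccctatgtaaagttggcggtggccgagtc

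A pair of KO libraries stood apart from the other 10. The level differences of the 9 genes, their rhythm calls and the rhythm differences of single genes named below are given with and without them. With times pooled the Arntl totals overlapped, at 0.295 to 12.9 TPM in WT and 4.19 to 6.28 TPM in KO, and the deleted exons are not given in the sources used here. Within ZT0, ZT8, ZT12, ZT16 and ZT20 the WT and KO libraries did not overlap. At ZT12, Arntl was 0.295 and 0.527 TPM in WT and 5.94 (replicate A) and 5.70 TPM in KO. At ZT4 it gave no check of the labels (6.16 and 4.72 TPM in WT, 6.28 and 4.98 TPM in KO). Cry1 and Nr1d1, both genes under BMAL1 control, were also looked at, after their values were seen. Labelled as KO, ZT4 replicate A had 1.03 TPM of Cry1 and 23.9 TPM of Nr1d1, against 0.845 to 1.20 and 22.0 to 33.0 TPM in the 2 WT libraries of that time and 11.5 to 17.8 and 1.24 to 3.46 TPM in the other 11 KO libraries. The label of that library therefore went against its clock genes, and it is called KO ZT4 replicate A only after its label. In the library labelled KO ZT12 replicate A, the 4 Y-linked genes Ddx3y, Eif2s3y, Kdm5d and Uty summed to 3.31 TPM, against 48.0 to 57.8 TPM in WT and 53.4 to 69.2 TPM in the other 11 KO libraries. Lists of genes that are high in male or in female mouse kidney also moved with genotype. The 8 male-high genes (among them Kap, Slco1a1 and Cyp2e1) summed to 33880 to 44880 TPM in WT and 16180 to 33240 TPM in the 10 KO libraries, and the 4 female-high genes (Slc7a12, Prlr, Cyp4a14 and Abcc3) to 6.65 to 41.8 TPM in WT and 176 to 813 TPM in those 10. KO ZT4 replicate A was at the WT level in both lists (39230 and 22.3 TPM). KO ZT12 replicate A had the lowest male-high sum of all (10830 TPM), and its female-high sum (649 TPM) lay within the range of the 10 KO libraries.

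**Figure D1:**
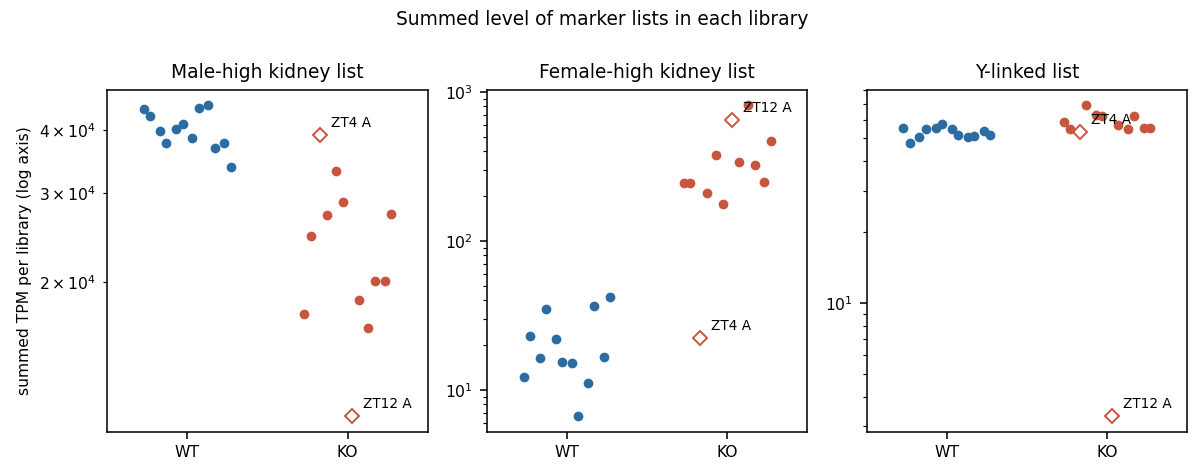
Summed TPM of the male-high, female-high and Y-linked lists (log axes) in each of the 12 WT (blue) and 12 KO (red) libraries, with points offset by time within a genotype and open diamonds for the 2 KO libraries that stand apart. The male-high sums of the 10 other KO libraries (16180 to 33240 TPM) lie below all 12 WT sums, and KO ZT12 replicate A has 3.31 TPM of Y-linked transcripts.

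In WT kidney, Slc22a12 was by far the most abundant of the 9 transcripts and Slc22a4 the least. TPM is scaled by transcript length, so levels can be compared between genes. The WT means were 836 ± 92.2 TPM for Slc22a12, 196 ± 23.0 for Slc22a6, 131 ± 8.05 for Slc22a2, 106 ± 12.6 for Slc22a8, 81.7 ± 28.1 for Slc22a7, 79.9 ± 11.2 for Slc22a5, 40.9 ± 11.6 for Slc22a19, 39.8 ± 6.15 for Slc22a13 and 24.2 ± 5.15 for Slc22a4 (SD, n = 12, times pooled). Neighbours in this order had ranges that did not overlap in only 3 places: between Slc22a12 and Slc22a6, between Slc22a6 and Slc22a2, and between Slc22a5 and Slc22a19. Slc22a7 and Slc22a5 could not be ordered, with Slc22a7 the higher in 7 of 12 WT libraries, and neither could Slc22a19 and Slc22a13 (8 of 12). In KO the order changed in its middle: Slc22a7, the fifth in WT, was the eighth in the 10 KO libraries (mean 23.1 TPM, after Slc22a19 at 28.1 TPM), and Slc22a13 went from the eighth to the sixth. Over all 12 KO libraries the mean of Slc22a7 (31.3 TPM) put it before Slc22a19 (29.9 TPM), although it was the higher of these genes in only 3 of the 12. In the 10 KO libraries Slc22a7 and Slc22a4 could not be ordered (Slc22a7 higher in 4 of 10). The 9 genes together made up 1335 to 1734 TPM per library in WT and 826 to 1274 TPM in the 10 KO libraries, ranges that did not overlap. The sum was 1713 TPM in KO ZT4 replicate A and 761 TPM in KO ZT12 replicate A.

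**Figure D2:**
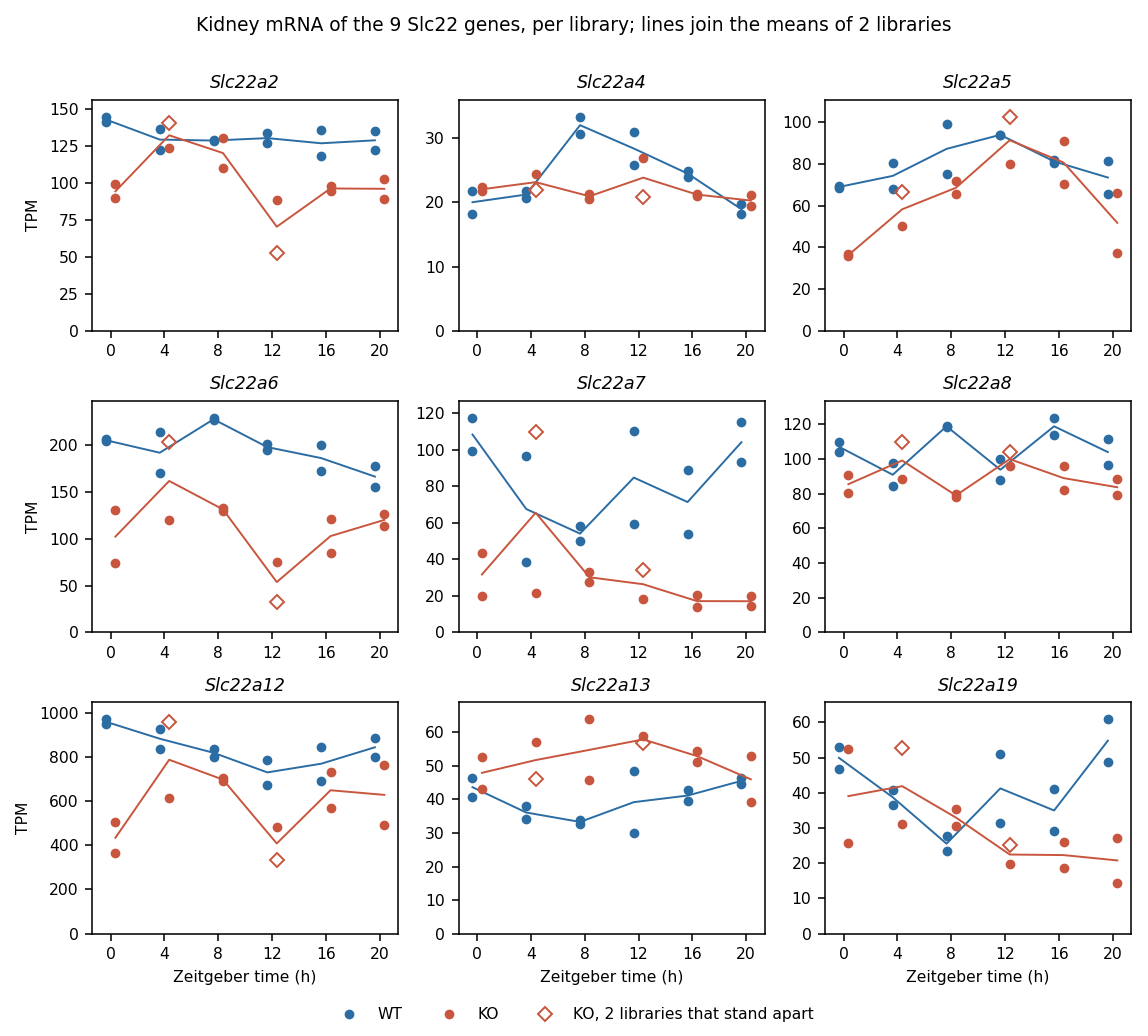
TPM of each of the 9 genes against zeitgeber time in hours, with 1 point per library (WT blue, KO red), lines through the means of 2 libraries, and open diamonds for KO ZT4 replicate A and KO ZT12 replicate A. Slc22a6 separates all 12 WT libraries from the 10 filled KO points, the 4 WT libraries of Slc22a4 at ZT8 and ZT12 lie above the other WT libraries, and Slc22a13 is the gene with more transcript in KO.

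Of the 9 genes, 7 were lower in KO than in WT when averaged over the 6 times, Slc22a13 was higher, and Slc22a4 was not called. The test was limma on log2(TPM + 0.1) with Benjamini-Hochberg adjustment over all 12874 genes and a threshold of 0.05. The same test called 60.9% of all genes, 50.9% higher and 10.0% lower in KO. The median difference (KO minus WT, log2) was -0.40 for the 9 genes and 0.15 for all genes tested. Median-of-ratios scaling, which sets the libraries to a common middle gene, moved the all-gene median to -0.002 and that of the 9 genes to -0.56. Under that scaling 21.5% of all genes were called higher and 22.6% lower, and 8 of the 9 genes were called lower, Slc22a4 now among them, with Slc22a13 still higher. Without the 2 KO libraries the same 7 genes were lower and Slc22a13 was higher (61.3% of all genes called, 10.3% lower). In whole kidney, fewer cells of a type and less RNA per cell cannot be told apart.

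Slc22a6 (OAT1), on chr19:8618039-8628299, is the basolateral organic anion exchanger that takes up compounds such as para-aminohippurate. It was 156 to 229 TPM in WT (median 201.2) and 73.6 to 133 TPM in the 10 KO libraries (median 121). All 10 lay below the lowest WT library, which was true of none of the other 8 genes and of 1.82% of all genes tested. Of the 2 that stand apart, KO ZT4 replicate A lay within the WT range at 204 TPM, and KO ZT12 replicate A had the lowest value of all at 31.97 TPM. The difference was -0.92 (SE 0.18, log2 scale; limma adjusted p = 0.00024), lower in KO at 6 of 6 times, and -0.86 (SE 0.10, limma adjusted p = 2.45e-06) without those 2 libraries.

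Slc22a8 (OAT3) has its gene 6203 bases upstream of Slc22a6 on the same strand of chromosome 19 (8591254 to 8611835) and is the other main basolateral anion exchanger. Its difference was smaller than that of its neighbour. WT libraries were at 84.2 to 124 TPM (median 107) and the 10 KO libraries at 78.0 to 96.0 TPM (median 85.1), so the groups overlapped, with 5 of 10 KO libraries below the lowest WT value. KO ZT4 replicate A and KO ZT12 replicate A were the highest of the KO libraries at 109.7 and 104 TPM. The difference in Slc22a8 was -0.24 (SE 0.07, limma adjusted p = 0.00775), lower at 4 of 6 times, and -0.31 (SE 0.06, limma adjusted p = 0.000391) without them. Over the 12 group means these neighbours had a Pearson r of 0.40 (0.60 without the 2 libraries), a description over means that share genotype and libraries. Both have GTTAAT before their RefSeq start, but for Slc22a8 that start lies downstream of the starts of the measured transcripts.

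Slc22a7 (OAT2), a carrier of organic anions and cyclic nucleotides on chr17:46432183-46438457, had the largest difference of the 9 genes. Its WT libraries were spread over 38.2 to 117 TPM (median 91.1), and the 10 KO libraries over 13.6 to 43.7 TPM (median 20.1). Of those 10, 9 lay below every WT library, the exception being KO ZT0 replicate A at 43.7 TPM. KO ZT4 replicate A had 109.5 TPM, near the top of the WT range, and KO ZT12 replicate A had 34.3 TPM. The difference was -1.57 (SE 0.29, limma adjusted p = 0.000211), lower at 6 of 6 times. It was -1.84 (SE 0.23, limma adjusted p = 3.75e-06) without those 2 libraries, where the WT mean was 3.53 times the KO mean. Within WT the 2 libraries of a time differed widely, as at ZT4 (96.8 and 38.2 TPM) and ZT12 (110 and 59.2 TPM).

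Slc22a12 (URAT1), the apical exchanger that recovers urate from the filtrate, lies on chr19:6535845-6543032. It was 676 to 972 TPM in WT (median 838) and 365 to 765 TPM in the 10 KO libraries (median 592), with 6 of 10 below the lowest WT library. The 2 libraries that stand apart, KO ZT4 replicate A at 962 TPM and KO ZT12 replicate A at 333 TPM, had the highest and the lowest KO values. The difference was -0.53 (SE 0.12, limma adjusted p = 0.000872), lower at 6 of 6 times, and -0.53 (SE 0.11, limma adjusted p = 0.000369) without them. The gene has 3 annotated transcripts, which made up 62.6%, 25.2% and 12.2% of its WT total and 60.6%, 24.9% and 14.5% of its KO total. The full-length coding transcript of 2226 bases alone was 523 ± 58.0 TPM in WT and 365 ± 114 TPM in KO (SD, n = 12 each), or 359 ± 81.7 TPM in the 10 KO libraries.

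Slc22a13 (OAT10), an apical carrier of nicotinate and urate on chr9:119192974-119209098, was the gene with more transcript in KO. WT libraries were at 29.9 to 48.5 TPM (median 40.2) and the 10 KO libraries at 39.1 to 63.9 TPM (median 52.8), with 7 of 10 above the highest WT library. KO ZT4 replicate A had 46.3 TPM, within the WT range, and KO ZT12 replicate A 57.0 TPM. The difference was 0.38 (SE 0.09, limma adjusted p = 0.00134), higher at 6 of 6 times by group means of TPM, and 0.38 (SE 0.10, limma adjusted p = 0.00338) without them. Under median-of-ratios scaling it was 0.23 (limma adjusted p = 0.0431), and with that scaling and without the 2 libraries it was 0.23 with an adjusted p of 0.0677 (limma), so the call on Slc22a13 rests partly on how the libraries are scaled.

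Slc22a19 (Oat5), a rodent carrier of organic anions such as estrone sulfate on chr19:7673061-7711310, had the least certain of the lower values. It was 23.5 to 60.9 TPM in WT (median 40.9) and 14.3 to 52.4 TPM in the 10 KO libraries (median 26.6), and only 3 of those 10 lay below the lowest WT library. Of the others, KO ZT4 replicate A had 52.7 TPM and KO ZT12 replicate A 25.2 TPM. The difference was -0.49 (SE 0.19, limma adjusted p = 0.0324), lower at 4 of 6 times, and -0.57 (SE 0.20, limma adjusted p = 0.0186) without them. Leaving out any 1 of 8 single libraries ended the call (limma adjusted p = 0.0559 to 0.0625): WT ZT12 A, WT ZT16 A, WT ZT20 A, WT ZT20 B, KO ZT0 B, KO ZT12 B, KO ZT16 A and KO ZT20 A.

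Slc22a2 (OCT2), the basolateral carrier of organic cations such as metformin and creatinine, lies on chr17:12584132-12628488. It was the steadiest gene in WT, at 118 to 145 TPM (median 131). The 10 KO libraries were at 88.4 to 130.0 TPM (median 98.5), with 8 of them below the lowest WT library, KO ZT4 replicate B and KO ZT8 replicate A being the other two. At 140.5 TPM and 52.3 TPM, KO ZT4 replicate A and KO ZT12 replicate A again had the highest and the lowest KO values. The difference was -0.40 (SE 0.09, limma adjusted p = 0.00109), lower at 5 of 6 times, and -0.36 (SE 0.06, limma adjusted p = 6.41e-05) without them.

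Slc22a5 (OCTN2), the sodium-dependent carnitine carrier on chr11:53864542-53891660, was 65.7 to 99.3 TPM in WT (median 80.5) and 36.0 to 91.0 TPM in the 10 KO libraries (median 65.8). Of those 10, 5 were below the lowest WT library: both at ZT0, KO ZT4 replicate B, KO ZT8 replicate B and KO ZT20 replicate A. KO ZT4 replicate A had 66.5 TPM, and KO ZT12 replicate A at 103 TPM had the highest value of all 24 libraries. The difference was -0.37 (SE 0.11, limma adjusted p = 0.00511), lower at 6 of 6 times, and -0.44 (SE 0.11, limma adjusted p = 0.00179) without them. Slc22a4 (OCTN1), the ergothioneine carrier on chr11:53983123-54028090, is 91462 bases from Slc22a5. It was 18.2 to 33.3 TPM in WT (median 22.9) and 19.4 to 26.9 TPM in the 10 KO libraries (median 21.4), and KO ZT4 replicate A (21.9 TPM) and KO ZT12 replicate A (20.8 TPM) lay within that range. Its difference, -0.12 (SE 0.07, limma adjusted p = 0.174), was not called, nor was -0.09 (SE 0.08, limma adjusted p = 0.315) without them. It was called under median-of-ratios scaling (-0.27, SE 0.08, limma adjusted p = 0.00933) and with libraries rescaled without the 20 most abundant genes (-0.20, limma adjusted p = 0.044).

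At single times, 14 of the 54 tests of 9 genes at 6 times were called (limma, adjusted over all genes at each time), and these fell on different genes at different times. At ZT0, 3 genes were lower in KO: Slc22a12 by -1.16, Slc22a5 by -0.92 and Slc22a2 by -0.60 on the log2 scale, where 2.75% of all genes were called lower. At ZT8, Slc22a4 (-0.61) and Slc22a8 (-0.59) were lower and Slc22a13 (0.70) higher, where 3.44% of all genes were called lower and 11.1% higher. At ZT12, Slc22a6 (-2.01), Slc22a2 (-0.94) and Slc22a12 (-0.86) were lower and Slc22a13 (0.60) higher, against 6.24% and 31.9% of all genes. Slc22a7 (-2.04) and Slc22a8 (-0.42) were lower at ZT16 (4.47% of all genes), and Slc22a7 (-2.62) and Slc22a19 (-1.46) at ZT20 (1.33%). At ZT4 limma called 0 of the 9 genes and 0 of all genes; 1 of the 9 had an unadjusted p under 0.05, as did 12.7% of all genes.

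The 2 KO libraries that stand apart bear directly on 2 of these times. Without them the calls came to 20 of 54: 6 at ZT0 (21.2% of all genes called), 0 at ZT4 (14.7%), 4 at ZT8 (20.8%), 3 at ZT12 (22.4%), 4 at ZT16 (28.1%) and 3 at ZT20 (9.66%). At ZT4 and ZT12 only 1 KO library was then left and was assumed to vary like the other groups, so these values have no replicate of their own in KO. At ZT4 none of the 9 genes was called, while 3 of the 9 had an unadjusted p under 0.05 in limma, as did 34.9% of all genes. The ZT12 difference of Slc22a6 went from -2.01 (SE 0.35) to -1.39 (SE 0.27, limma adjusted p = 0.00385), that of Slc22a2 from -0.94 to -0.56 (limma adjusted p = 0.0078), and that of Slc22a12 from -0.86 to -0.59, which was no longer called (limma adjusted p = 0.0967). Slc22a7 at ZT12 went the other way, from -1.69 (limma adjusted p = 0.0615) to -2.14 (limma adjusted p = 0.0241). Slc22a13 at ZT12 kept its size (0.63) but was no longer called (limma adjusted p = 0.0974).

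**Figure D3:**
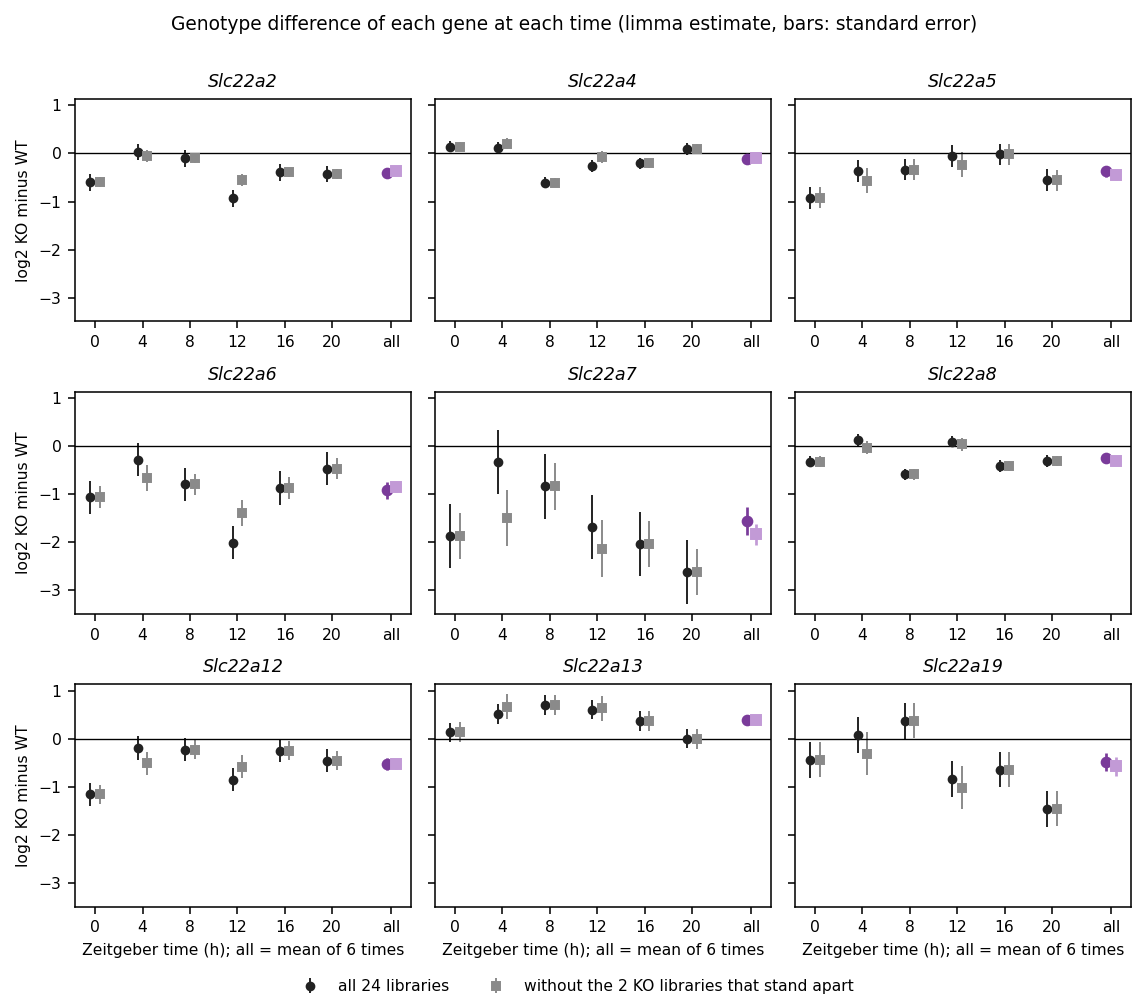
Difference in log2(TPM + 0.1), KO minus WT, with its standard error for each gene at each zeitgeber time and averaged over the 6 times ("all", purple), from all 24 libraries (circles) and without the 2 KO libraries that stand apart (squares). Slc22a7 has the largest differences and standard errors, Slc22a13 lies above 0 at 5 of 6 times and at -0.001 at ZT20, and leaving out the 2 libraries moves ZT4, ZT12 and the average.

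A 24-hour rhythm was called for 1 of the 9 genes in WT, Slc22a4, and for another in KO, Slc22a5. The test fitted a cosine of 24 hours to each genotype in one limma model, and called 13.7% of all genes in WT and 3.64% in KO. A count of 1 among 9 genes is too small to set apart from these shares. Peak-to-trough sizes on the log2 scale had a median of 0.43 in WT and 0.57 in KO over the 9 genes, and of 0.25 and 0.22 over all genes tested. Without the 2 libraries the KO medians were 0.36 and 0.23, and Slc22a4 in WT and Slc22a5 in KO were again the calls (19.9% and 4.75% of all genes).

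Slc22a4 in WT was 18.3 and 21.8 TPM at ZT0, 20.7 and 21.8 at ZT4, 30.7 and 33.3 at ZT8, 25.8 and 31.01 at ZT12, 24.03 and 24.97 at ZT16 and 18.2 and 19.7 at ZT20. The 4 libraries of ZT8 and ZT12 were above all 8 of the other times. The fitted peak-to-trough size in WT was 0.73 (SE 0.11) with a peak at ZT 10.3 (SE 0.57 h; limma adjusted p = 0.000502). In KO the 12 libraries stayed within 19.4 to 26.9 TPM, and the fitted size was 0.11 (SE 0.11, limma adjusted p = 0.804). The difference in rhythm between genotypes was not called over all genes (limma adjusted p = 0.0993; unadjusted p = 0.00144), nor without the 2 libraries (adjusted p = 0.161). It was called when KO ZT12 replicate B, the highest KO value of Slc22a4, was left out (limma adjusted p = 0.0306). Slc22a21, which lies between Slc22a5 and Slc22a4, had a rhythm in WT with a peak at ZT 8.52 (size 1.14, SE 0.19, limma adjusted p = 0.00154) and in KO with a peak at ZT 9.29 (size 0.82, limma adjusted p = 0.0459; size 0.92 and 0.0349 without the 2 libraries). The KO call on Slc22a21 was lost in 17 of the 24 fits that left out 1 library (limma adjusted p = 0.0084 to 0.125 over the 24), under median-of-ratios scaling (0.0515), with no filter (0.0825), with KO fitted alone (0.236) and with time as 6 free levels (0.175).

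Slc22a5 in KO was 36.0 and 36.7 TPM at ZT0, 66.5 and 50.1 at ZT4, 71.8 and 65.4 at ZT8, 103 and 80.2 at ZT12, 70.5 and 91.0 at ZT16 and 37.4 and 66.2 at ZT20. Both ZT0 libraries were lower than all others, and the highest 3 were both ZT12 libraries and KO ZT16 replicate B. The fitted size was 1.19 (SE 0.17) with a peak at ZT 12.0 (SE 0.56 h; limma adjusted p = 0.00237), and 1.23 (SE 0.18, limma adjusted p = 0.00328) without the 2 libraries. In WT, Slc22a5 had a size of 0.43 (SE 0.17) with a peak at ZT 11.4, and was not called (limma adjusted p = 0.212). The difference between genotypes was not called (limma adjusted p = 0.263; 0.198 without the 2 libraries). The KO call was lost with the 12 KO libraries fitted alone (limma adjusted p = 0.0964) and with time as 6 free levels (limma adjusted p = 0.0738).

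For the other 7 genes no rhythm passed the adjusted threshold in either genotype, and no rhythm difference between genotypes was called for any of the 9 by limma (0.629% of all genes). At an unadjusted p under 0.05, 5 of the 9 genes had a difference in rhythm, where 13.7% of all genes did: Slc22a4, Slc22a5, Slc22a7, Slc22a13 and Slc22a19. Slc22a19 had its fitted peak at ZT 21.3 (SE 1.38 h) in WT and ZT 4.03 (SE 1.07 h) in KO, with sizes of 0.83 and 1.07 (difference, limma adjusted p = 0.198). Without the 2 libraries the KO peak of Slc22a19 was at ZT 3.85 with a size of 0.93 (difference, limma adjusted p = 0.286). Slc22a13 peaked at ZT 20.02 (SE 1.28 h) in WT and ZT 10.5 (SE 1.79 h) in KO (difference, limma adjusted p = 0.203), or ZT 9.70 in KO without the 2 libraries (difference, limma adjusted p = 0.225). For Slc22a7 the sizes were 0.84 (SE 0.48) and 1.42 (SE 0.48), and the KO value fell to 0.90 without the 2 libraries (difference, limma adjusted p = 0.3 with and 0.342 without). The KO size without them fell from 0.94 to 0.25 for Slc22a6 and from 0.57 to 0.36 for Slc22a2. It went from 0.27 to 0.38 for Slc22a12 and from 0.08 to 0.10 for Slc22a8.

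**Figure D4:**
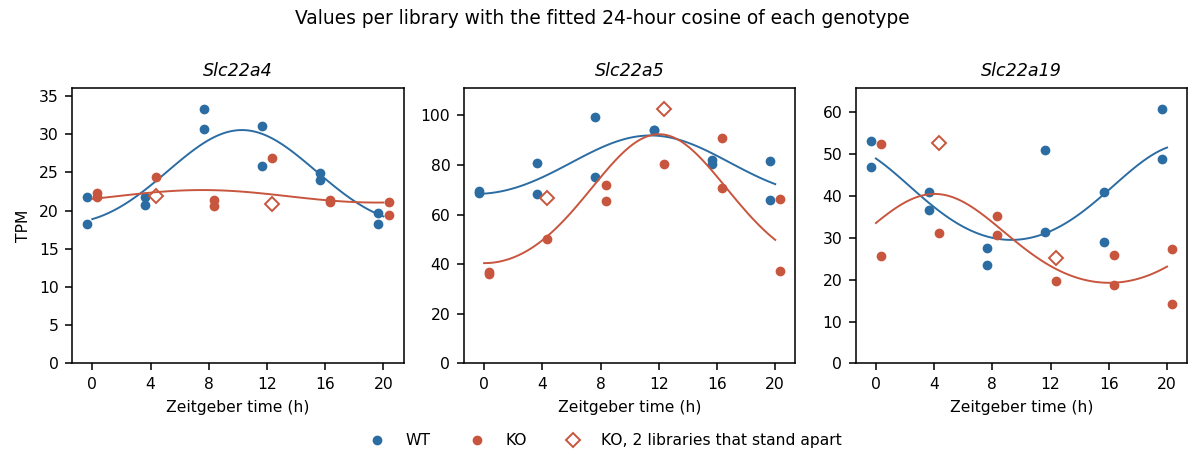
TPM per library of Slc22a4, Slc22a5 and Slc22a19 against zeitgeber time in hours, with the 24-hour cosine fitted to each genotype (WT blue, KO red; open diamonds are the 2 KO libraries that stand apart). The WT curve of Slc22a4 peaks at ZT 10.3 and the KO curve is nearly flat, the KO curve of Slc22a5 has the larger swing (1.19 against 0.43 on the log2 scale), and the curves of Slc22a19 peak at ZT 21.3 and ZT 4.03.

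How uniquely reads could be assigned differed between the genes. None of the 31-base words of the main Slc22a6 and Slc22a7 transcripts occurred in transcripts of another gene, and 1.17% (Slc22a8), 3.66% (Slc22a19), 7.02% (Slc22a2) and 7.84% (Slc22a4) did for the next. For Slc22a5 the share was 38.7%, nearly all with Slc22a21, whose own level averaged 2.84 TPM. For Slc22a13 it was 41.5%, all with the pseudogene Slc22a13b-ps (0.195 TPM on average), and the annotated span of Slc22a14 (0.971 TPM) covers Slc22a13. For Slc22a12 it was 31.01%, mostly with Nrxn2. Of the 9 genes, Slc22a5, Slc22a12 and Slc22a13 therefore rest most on how shared reads were divided. The levels given to Slc22a21 and Slc22a13b-ps were low beside those of Slc22a5 and Slc22a13 (72.2 and 45.9 TPM on average). Slc22a21 is the lower of its pair, so its level and the rhythms given for it above are more open to that division, which was not tested.

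Among the 10 other Slc22a genes that passed the filter, 3 were higher and 5 lower in KO (50.9% and 10.0% of all genes were), with the same counts without the 2 libraries. Under median-of-ratios scaling 3 were higher and 6 lower (21.5% and 22.6% of all genes). The largest differences of the whole family were here, in the rodent gene cluster on chromosome 19. Slc22a26, 69730 bases from Slc22a19, was 5.35 to 19.2 TPM in WT and 0.314 to 1.57 TPM in the 10 KO libraries, with 9.01 TPM in KO ZT4 replicate A and 0.132 TPM in KO ZT12 replicate A. The 10 KO libraries lay below all WT libraries, and the difference was -3.32 (SE 0.38, limma adjusted p = 1.66e-06; -3.50 without the 2 libraries). Slc22a29 went the opposite way, from 1.25 to 4.49 TPM in WT to 11.2 to 47.2 TPM in the 10 KO libraries, with 4.13 TPM in KO ZT4 replicate A and 72.2 TPM in KO ZT12 replicate A. That difference was 2.75 (SE 0.30, limma adjusted p = 1.21e-06; 2.78 without the 2 libraries).

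Slc22a30 of the same cluster was lower by -1.17 (SE 0.35, limma adjusted p = 0.0084; -0.89 without the 2 libraries), with a mean of 98.6 TPM in WT and 54.6 TPM in the 10 KO libraries and 2.90 TPM in KO ZT12 replicate A. Slc22a28 was lower by -0.76 (SE 0.27, limma adjusted p = 0.0227; -0.55 without them), and Slc22a22, a prostaglandin transporter on chromosome 15, by -0.58 (SE 0.17, limma adjusted p = 0.00591; -0.47 without them). Slc22a17, known as a receptor of lipocalin-2, was higher by 0.57 (SE 0.06, limma adjusted p = 1.07e-06; 0.64 without them). In all 4 of these chromosome 19 genes (Slc22a26, Slc22a28, Slc22a29 and Slc22a30), KO ZT4 replicate A lay within the WT range and KO ZT12 replicate A was the most extreme library. The male-high sums placed both libraries in the same way, one at the WT level and the other at the lowest level. The female-high sums placed only KO ZT4 replicate A in that way (22.3 TPM, within the WT range). The female-high sum of KO ZT12 replicate A, 649 TPM, was not the most extreme, as KO ZT16 replicate A had 813 TPM. The part of the male-high and female-high genes in these results and in those of the 9 genes was not tested.

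**Figure D5:**
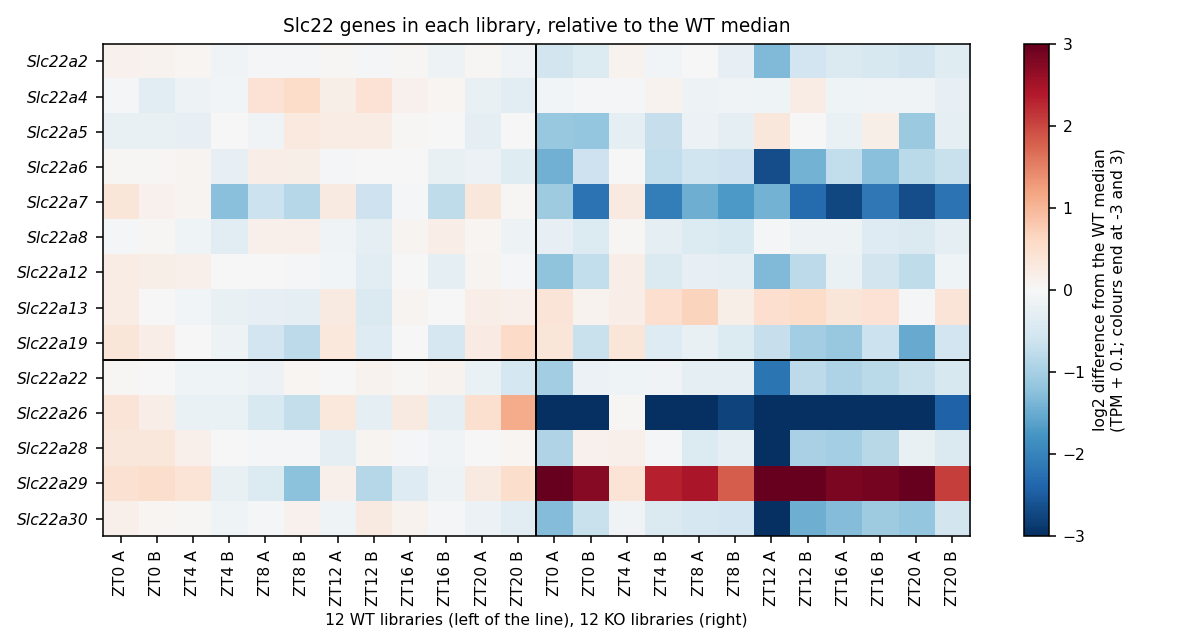
Each of the 9 genes (above the line) and 5 other Slc22a genes (below) in the 24 libraries, coloured by log2(TPM + 0.1) minus the WT median (colours end at -3 and 3). Slc22a26 and Slc22a29 change in opposite directions, Slc22a7 has the darkest cells of the 9, and the column of KO ZT4 replicate A is as pale as those of WT.

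Genes that work with these transporters changed in both directions. The counts below stand against 50.9% of all genes called higher and 10.0% called lower in KO by the same test. Of 12 dicarboxylate and apical partners of organic anion secretion, 4 were higher and 6 lower in KO (as many without the 2 libraries). Slc13a3, the basolateral dicarboxylate carrier that maintains the exchange gradient of OAT1 and OAT3, was lower by -0.37 (SE 0.08, limma adjusted p = 0.000437). The apical anion carriers Slc17a1 and Slc17a3 were lower by -0.56 (SE 0.08) and -0.99 (SE 0.14; limma adjusted p = 1.04e-05 and 8.58e-06). Among the organic anion transporting polypeptides, Slco1a1 was lower by -4.22 (SE 0.61, 100.4 TPM in WT and 8.91 TPM in the 10 KO libraries) and Slco1a6 by -1.07 (SE 0.12). Abcc4, an efflux pump of the apical side, was higher by 0.70 (SE 0.12, limma adjusted p = 0.000111). Slco1a1 is also a member of the male-high list.

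Of the organic cation partners, 3 of 5 passed the filter, and 1 was higher and 1 lower. Slc47a1 (MATE1), which releases cations taken up by OCT2 into the urine, was lower by -0.17 (SE 0.05, limma adjusted p = 0.0052), and Abcb1b, a P-glycoprotein, was higher by 1.99 (SE 0.21, limma adjusted p = 6.96e-07). Of 6 urate genes, 5 passed the filter, 2 were higher and 2 lower, the lower ones being Slc17a1 and Slc17a3. Slc2a9 (GLUT9), the basolateral exit of urate recovered by URAT1, was higher by 0.51 (SE 0.09, limma adjusted p = 8.68e-05).

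Among 10 carnitine genes, 8 passed the filter, 5 were lower and 1 higher. Aldh9a1, an enzyme of carnitine synthesis, was lower by -0.46 (SE 0.08, limma adjusted p = 5.88e-05). Cpt1a, which loads fatty acids on carnitine, was lower by -0.33 (SE 0.07, limma adjusted p = 0.000925), and its muscle-type form Cpt1b was higher by 0.54 (SE 0.11, limma adjusted p = 0.000249). A KO rhythm was called for 3 of the 8, where 3.64% of all genes had one, with fitted peaks near that of Slc22a5. These were Cpt1a at ZT 10.6 (size 0.88), Cpt1b at ZT 12.2 (size 0.89) and the acylcarnitine carrier Slc25a20 at ZT 12.0 (size 0.82). Cpt1a had a rhythm in WT as well (size 0.80, peak at ZT 9.46, limma adjusted p = 0.00472). A difference in rhythm between genotypes was called for none of the 3 (limma adjusted p = 0.781, 0.459 and 0.318 for Cpt1a, Cpt1b and Slc25a20). Of the 3 KO calls, those on Cpt1a and Slc25a20 held without the 2 libraries, and that on Cpt1b did not (limma adjusted p = 0.0938). Cpt2 was then called in KO (limma adjusted p = 0.0285). With time as 6 free levels all 3 KO calls were lost (limma adjusted p = 0.053, 0.224 and 0.143 for Cpt1a, Cpt1b and Slc25a20). The call on Slc25a20 ended without KO ZT0 A, KO ZT0 B or KO ZT12 A alone (limma adjusted p = 0.0613 to 0.0758), that on Cpt1b without KO ZT0 B or KO ZT12 A (0.0822 and 0.0833), and all 3 with the KO libraries fitted alone (limma adjusted p = 0.156, 0.186 and 0.247 for Cpt1a, Cpt1b and Slc25a20). Slc25a20 was also the second closest gene to Slc22a5 in its pattern over the 12 group means (Pearson r = 0.92; 0.89 without the 2 libraries), after Errfi1 (0.93; 0.90).

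Of 4 genes for scaffold proteins of apical transporters and a binding partner of PDZK1 (Pdzk1ip1), 2 were higher and 2 lower. Pdzk1, which binds URAT1 among others, was lower by -0.19 (SE 0.05, limma adjusted p = 0.00323). Pdzk1ip1, not itself a scaffold, was higher by 0.46 (SE 0.04, limma adjusted p = 3.91e-07). Of 11 transcription factors of the proximal tubule, 9 passed the filter, 3 were higher and 1 lower. Hnf4a was lower by -0.16 (SE 0.04, limma adjusted p = 0.00367), while Nr1i2 (PXR), a sensor of foreign compounds, was higher by 0.97 (SE 0.15, limma adjusted p = 3.04e-05). The directions given for partner, scaffold and factor genes were the same with the 2 libraries left out and under every scaling tried. Without those libraries the differences were -0.43 for Slc13a3, -0.57 for Slc17a1, -0.97 for Slc17a3, -4.19 for Slco1a1, -1.15 for Slco1a6 and 0.69 for Abcc4. They were -0.15 for Slc47a1, 2.15 for Abcb1b, 0.52 for Slc2a9, -0.48 for Aldh9a1, -0.35 for Cpt1a, 0.54 for Cpt1b, -0.21 for Pdzk1, 0.48 for Pdzk1ip1, -0.16 for Hnf4a and 1.05 for Nr1i2, and each of these genes was called again. Under median-of-ratios scaling 21.5% of all genes were called higher and 22.6% lower. The counts were then 4 higher and 6 lower for the anion partners, 1 and 1 for cation partners, 1 and 2 for urate genes, 1 and 5 for carnitine genes, 1 and 2 for scaffolds and 1 and 2 for factors. The PAR bZIP factors Dbp, Tef and Hlf and their antagonist Nfil3 all had a rhythm in WT and none in KO (13.7% and 3.64% of all genes had one). Of these 4, 3 differed in rhythm between genotypes (0.629% of all genes).

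Markers of cell types moved with genotype beside these genes. Of 10 proximal tubule markers, 5 were higher and 2 lower in KO, with sums of 5689 to 6281 TPM in WT and 5283 to 6241 TPM in the 10 KO libraries. Of 4 markers of its last segment, S3, 3 were lower and 1 higher, with sums of 559 to 939 TPM in WT and 270 to 543 TPM in those KO libraries; Slc7a13 of this list is also male-high. All 3 distal convoluted tubule, 4 collecting duct, 4 intercalated and 4 podocyte markers were higher in KO, as were 50.9% of all genes. The summed levels (WT, then the 10 KO libraries) were 169 to 234 and 239 to 320 TPM for the distal convoluted tubule and 67.5 to 85.7 and 102 to 129 TPM for intercalated cells. Of 4 thick ascending limb markers, 3 were higher and 1 lower, with sums of 1201 to 1814 TPM (median 1554) in WT and 1269 to 1554 TPM (median 1434) in the 10 KO libraries. Of 5 tubular injury genes, 3 passed the filter, 1 was higher and 1 lower (2 and 1 without the 2 libraries), and their sums were 336 to 737 TPM (median 438) in WT and 549 to 1144 TPM (median 774) in the 10 KO libraries. Endothelial markers were higher in 2 of 4, and liver markers were higher in 2 and lower in 1 of 4 (3 and 1 without the 2 libraries), with liver sums of 28.4 to 85.0 TPM in WT and 101.4 to 160.2 TPM in the 10 KO libraries. None of the immune and adipose markers that passed the filter (2 of 4 in each list) was called. Under median-of-ratios scaling (21.5% of all genes higher and 22.6% lower) 3 of the 10 proximal tubule markers were higher and 3 lower, 2 of the 3 distal convoluted tubule markers were higher, and the counts of the other 3 distal and podocyte lists were the same. The defining markers of adrenal cortex were near 0 in every library (sums of at most 1.34 TPM). The part of the S3, distal, injury and liver markers in the differences of the 9 genes was not tested.

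The patterns of the 9 genes over the 12 group means of genotype and time fell into a few like and unlike pairs. Slc22a2 was like Slc22a6 (Pearson r = 0.96; 0.90 without the 2 KO libraries) and Slc22a12 (0.92; 0.86), Slc22a6 was like Slc22a12 (0.90; 0.87), and Slc22a7 was like Slc22a19 (0.85; 0.85). Slc22a13 ran against Slc22a6 (-0.79; -0.85), and the highest r of Slc22a5 was 0.48, with Slc22a8 (0.57, with Slc22a12, without the 2 libraries). These values describe means that share libraries. Among all 12874 genes, the closest to Slc22a2 was Gss (0.99), to Slc22a6 Chst7 (0.99), to Slc22a7 Lpl (0.96), to Slc22a12 Dhrs4 (0.94), to Slc22a13 Hsd11b2 (0.96), to Slc22a19 Apoa4 (0.96), to Slc22a4 Clcn2 (0.93) and to Slc22a8 Plekha6 (0.89). For these pairs r was 0.87 to 0.99 without the 2 libraries, with that of Slc22a19 and Apoa4 at 0.88.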

How the data were processed

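RNA abundances of 24 kidney libraries (12 WT, 12 KO) were used; the chromosome contact libraries were not used here. Per the submitters' processing notes, abundances were made with kallisto 0.42.4 on mouse build GRCm38 (mm10). The deposited table gives TPM per transcript, and the values of each library sum to 999999 to 1000001, so the depth in reads is unknown. Of 88198 transcripts, 86119 were matched to GENCODE annotation and summed per gene; the remaining 2079 held 1.35% to 2.24% of TPM. Samples were grouped by the genotype, time and letter in their labels. Differences were tested with limma 3.58.1 (R 4.3.3; eBayes with trend and robust options) on log2(TPM + 0.1) over the 12874 genes that averaged 1 TPM or more; a log2 difference on this scale understates that of low genes. Level was tested with time as a factor, single times as 12 group means, and rhythm with a 24-hour cosine, with Benjamini-Hochberg adjustment over all genes. The scripts were tested on simulated data. Alternatives covered the pseudocount, filter, scaling, replicate block and each library left out; leaving out both KO libraries that stand apart was chosen after seeing the data. The members and lists were chosen with earlier results of these data known. Named genes were the 9 genes, other Slc22a genes, listed partners and markers, and the genes most correlated with each; 2 genes of these lists are not reported here.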

Additional observations from a re-analysis of the deposited data

Results flagged for a closer look

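Apart from the cell type markers, 4 genes of the lists used here had a rhythm that differed between genotypes by limma's test of the difference (0.629% of all genes). Of the 4 podocyte markers, 1 was also called, and that call was lost without the 2 KO libraries that stand apart. Slc9a3r1 (NHERF1), a scaffold of apical transporters, peaked at ZT 14.2 in WT and ZT 1.65 in KO, with peak-to-trough sizes of 0.28 (SE 0.07) and 0.33 (SE 0.07) on the log2 scale (limma adjusted p = 0.0152; 0.0209 without the 2 KO libraries that stand apart; 0.0881 with time as 6 free levels). Each Slc9a3r1 rhythm was close to the threshold (limma adjusted p = 0.0348 in WT and 0.0329 in KO). The WT call was lost in 8 alternatives and the KO call in 11. Without the 2 KO libraries the KO rhythm was not called (limma adjusted p = 0.0807). Dbp had a size of 6.04 (SE 0.24) in WT and 0.63 in KO (limma adjusted p = 1.51e-09). The sizes were 1.86 (SE 0.15) and 0.16 for Tef (limma adjusted p = 0.000163), and 4.67 (SE 0.31) and 0.63 for Nfil3 (limma adjusted p = 4.39e-06).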

How the results depend on the processing

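Direction of the level difference of all 9 genes was the same under every alternative run. Their count of 8 calls stayed within 1.5 times in all alternatives, with 8 also under the replicate block (7873 of all genes called, against 7844). Libraries of the same letter had no shift common to all groups. Over 66 pairs of groups the correlation of same-letter deviations ranged from -0.323 to 0.338 with a median of 0.022, and 21 pairs were over 0.1. The labels do not say what A and B stand for, so whether they pair some libraries cannot be told from this. Under the block the counts of level and rhythm calls among the 9 genes were the same, and 16 single-time tests were called in place of 14 (12002 in place of 11767 over all genes). Counts at single times and of rhythms moved more. With no filter on low values, 8 of the 54 tests at single times were called (14 as reported), KO rhythms fell to 295 genes (468) and rhythm differences to 43 (81). Over all genes the count of calls at single times stayed within 1.5 times of that reported in every alternative run. With each genotype fitted alone, WT rhythms rose to 2843 genes (1761) and 3 of the 9 (Slc22a4, Slc22a5, Slc22a12), and KO rhythms fell to 12 genes and 0 of the 9. With time as 6 free levels, 576 WT rhythms, 28 KO rhythms (0 of the 9) and 23 rhythm differences were called; these 2 alternatives have fewer samples or more terms. Leaving out 1 library at a time gave 8 to 18 calls at single times (8 without WT ZT0 A, WT ZT0 B or KO ZT8 A, 9 without WT ZT8 A or WT ZT8 B), 1 to 3 WT rhythms among the 9 (3 without WT ZT12 A, which added Slc22a13 and Slc22a19), 1 to 2 KO rhythms (2 without KO ZT12 A, which added Slc22a2) and 0 to 1 rhythm differences (1, Slc22a4, without KO ZT12 B). Over all genes, leaving out 1 library gave 8818 to 16029 calls at single times and 1194 to 2140 WT rhythms. It also gave 272 to 626 KO rhythms (272 without KO ZT0 B, 297 without KO ZT8 B) and 37 to 112 rhythm differences (37 without WT ZT4 B, 39 without WT ZT16 A, 40 without WT ZT4 A, 47 without WT ZT12 B, 50 without KO ZT8 B, 53 without WT ZT16 B). Without the 2 KO libraries the level difference of the Y-linked genes Ddx3y, Eif2s3y and Uty went from -0.41, -0.36 and -0.23 to 0.14, 0.18 and 0.04. Among the other Slc22a, partner, scaffold and factor genes named, it changed sign for Slc22a21, which was not called (0.02 log2), to -0.12 under median-of-ratios scaling, -0.081 also without the 2 libraries, -0.062 with libraries rescaled without the 20 most abundant genes, and over a range of -0.049 to 0.058 with 1 library left out. The cause of these shifts was not tested. Read depth is unknown, so what it limits was not tested.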
